A study of Mus musculus with 20 samples.

Results

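The step from regulatory T cell (Treg) to T follicular regulatory cell (TFR) was compared between the peripheral lymph node (pLN) and the Peyer's patch (PP). The members were the TFR and Treg arrays, chosen by their labelled cell source: 10 of the 20 samples, 2 PP TFR, 2 PP Treg, 3 pLN TFR and 3 pLN Treg. Each sample was RNA of sorted mouse CD4 T cells on a 1-colour Agilent array, and the arrays lay 4 to a slide, with 1 Treg and 1 TFR array on every slide beside a naive T cell and a T follicular helper cell (TFH) array in pLN, or a GL7+ and a GL7- TFH array in PP. All groups came from B6.Cg-Foxp3<tm1Mal> mice, which report Foxp3 by green fluorescent protein (GFP), at 8 to 14 weeks of age, and each sample was a pool of 8 to 15 animals of both sexes. The pLN groups were taken after subcutaneous immunisation with keyhole limpet hemocyanin (KLH) in alum, on d12 (2 slides) and d25 (1 slide). The labels of the PP groups (2 slides) name no immunisation, so tissue, immunisation and time cannot be told apart. Tregs were sorted as GFP-positive cells low or negative for PD1 and negative for GL7, and TFR as GFP-positive, PD1-high cells with or without GL7. TFR were therefore not divided by GL7, and the genes of the sort markers, Foxp3 and Pdcd1, are no finding between the groups.

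TFR are Foxp3-expressing T cells that enter B-cell follicles and restrain the germinal centre reaction. They arise from Tregs that take up the follicular programme led by the repressor BCL6, lower the receptors that hold T cells in the T-cell zone, and respond less to interleukin-2 (IL-2) through STAT5. Peyer's patches are the lymphoid follicles of the small intestine, where gut antigens keep germinal centres running, whereas the germinal centres of a draining lymph node follow an immunisation.

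For each slide the step was log2 normalised intensity of TFR minus that of Treg, so that any shift shared by the arrays of a slide cancelled. The tissue difference was the mean of the 2 PP steps minus the mean of the 3 pLN steps, and a step is called larger in PP where this difference is positive and smaller in PP where it is negative. A difference or a step was called at a limma adjusted p under 0.05, with Benjamini-Hochberg adjustment over all 21626 probes tested, and an absolute log2 value of at least 1. Errors of fitted values are standard errors (SE) from the fit, and ordering the 5 slides alone could give no exact permutation p under 0.1. The p-values measure how far differences between cell types within a slide varied from slide to slide, over all 20 arrays of the fit. The labels do not say whether replicates came from separate sorts, so that variation may be technical.

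Libraries and sorted cells were checked before the comparison. All 8 tested markers of CD4 T cells and Tregs were well above background on all 10 arrays, and none of them was called. Transcripts of B cells and epithelium were highest on the PP replicate 1 slide. The summed normalised intensity of 14 B-cell markers was 14470 to 181100 in PP TFR, 17290 to 121700 in PP Treg, 8177 to 9678 in pLN TFR and 11950 to 20530 in pLN Treg, and that of 11 epithelial markers reached 47040 in PP Treg against 1329 in pLN Treg. The high ends in PP were those of replicate 1. None of the 13 tested B-cell markers, 8 myeloid markers, 4 CD8 T and NK cell markers and 4 plasma cell markers was called, and among 7 epithelial markers Fabp2, a fatty acid carrier of enterocytes, was called at -2.62 ± 0.77 (adjusted p = 0.0459), with intensities in PP of 29054 and 502 in Treg and 8759 and 45.6 in TFR, and pLN Treg below background. The part of these transcripts in the differences was not tested, and in sorted bulk RNA fewer cells of a type and less RNA per cell cannot be told apart. Treg and TFR always had the same positions on a slide, and the slides took 50 ng (pLN d12 replicate 1 and PP replicate 1) or 40 ng of RNA. Between 43.0% and 58.0% of probes were well above background on an array.

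The Treg to TFR step differed between the tissues at 1171 of 21626 probes (5.41%), which carried 968 named genes. It was larger in PP at 525 probes (2.43%) and smaller at 646 (2.99%). In PP the step itself rose at 1933 probes (8.94%) and fell at 1133 (5.24%), and in pLN it rose at 1843 (8.52%) and fell at 882 (4.08%). Among the probes with a larger step, 291 rose in PP with no called step in pLN, and 93 rose in both tissues with a higher rise in PP. Among those with a smaller step, 264 rose in pLN with no called step in PP, 72 rose in both with a lower rise in PP, and 157 fell in PP alone. Called steps of opposite direction were few, 2 probes rising in PP and falling in pLN and 14 the reverse. In 664 of the called probes all 4 groups were measured, while in 358 at least 1 group was not well above background on any of its arrays, so that those differences rest on a bound. The steps of PP replicate 1, when it took no part in the calls, had a median of 1.60 over the 206 probes then called larger and -1.03 over the 173 called smaller. On PP replicate 2, which took part in those calls, they were 1.98 and -1.32. With PP replicate 2 left out instead, its medians were 1.10 over 256 probes and -0.29 over 313, against 1.32 and -0.80 on PP replicate 1. The median PP step thus had the same sign on both PP slides and was smaller on the slide left out. The pLN slides took part in the calls both times, so these medians carry no test of the tissue difference.

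**Figure D1:**
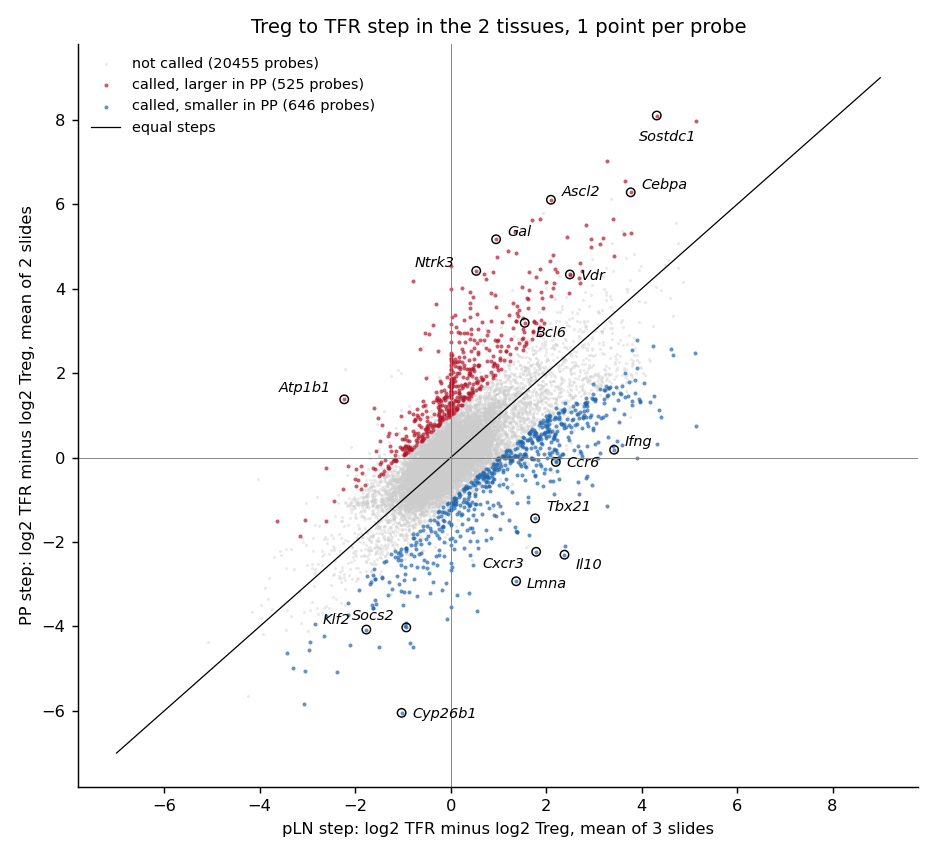
Each point is 1 tested probe, with its mean pLN step on the horizontal axis and its mean PP step on the vertical axis (both log2 TFR minus log2 Treg), the diagonal marking equal steps. The 525 red probes lie above the diagonal and the 646 blue probes below it, with Ascl2 rising by 6.11 in PP and 2.10 in pLN, Atp1b1 rising in PP and falling in pLN, and Cxcr3 doing the reverse.

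Among genes measured in all 4 groups, the step gained most in PP at Gal, Ascl2 (described with the follicular factors), Igf2bp2 and Ntrk3. Gal encodes the neuropeptide galanin (probe on chr19:3411143-3411202, minus strand, mm9). Its normalised intensity in Treg was 615 and 405 on the d12 pLN slides, 439 at d25, and 527 and 216 in PP, and in TFR 934, 612 and 1384 in pLN against 17168 and 8619 in PP. Both PP TFR arrays lay far above every other array, and the difference of steps was 4.22 ± 0.42 (adjusted p = 0.000277). Ntrk3 encodes the neurotrophin receptor TrkC (chr7:85445908-85445967, minus strand), and its levels were 231, 169 and 223 in pLN Treg, 238, 287 and 387 in pLN TFR, 287 and 204 in PP Treg, and 5694 and 4736 in PP TFR. Only the PP TFR arrays stood out, with a difference of 3.89 ± 0.23 (adjusted p = 2.94e-05), and all 4 Ntrk3 probes were called. Igf2bp2, an RNA-binding protein gene, differed by 3.94 ± 0.45, C3, the central complement component, by 3.49 ± 0.57, Ctsl, a lysosomal protease gene, by 3.39 ± 0.40, Ltbp4, which encodes a binding protein of latent TGF-beta, by 2.93 ± 0.32, Slc24a3, which encodes a sodium, calcium and potassium exchanger, by 2.80 ± 0.67 and Syde1, a gene of synapse formation, by 2.78 ± 0.25. The call of Slc24a3 was kept only with pLN d25 left out (the other 4 omissions gave 2.13 to 2.92), and that of C3 was lost without PP replicate 2 (2.98). Atp1b1, the beta subunit of the sodium pump, moved in opposite directions (chr1:166368263-166368322, minus strand). It read 4372, 4335 and 4245 in pLN Treg and 717, 743 and 1462 in pLN TFR, but 2817 and 4231 in PP Treg and 8922 and 9050 in PP TFR. It therefore fell in pLN by 2.23 ± 0.22 and rose in PP by 1.38 ± 0.27, a difference of 3.61 ± 0.35 (adjusted p = 0.000259).

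The measured genes with the most negative differences included Il10, Dnah7a, Lmna, Cxcr3, Gsta4, Emp1, Gzmb, Mlf1 and Ifng, of which Cxcr3 and Ifng are given with the type 1 genes. Il10 encodes the suppressive cytokine IL-10 (chr1:132920943-132921002, plus strand). Its intensities were 1212, 503 and 194 in pLN Treg, 1671, 2305 and 4382 in pLN TFR, 4527 and 3338 in PP Treg, and 463 and 1345 in PP TFR. TFR exceeded Treg on all 3 pLN slides and lay below it on both PP slides, a difference of -4.69 ± 1.13 (adjusted p = 0.0215), in which the rise in pLN was called and the PP step was not. Lmna, which encodes the nuclear lamins A and C (chr3:88287262-88287321, minus strand), read 1023, 917 and 1069 in pLN Treg, 3109, 2014 and 2774 in pLN TFR, 848 and 596 in PP Treg, and 130 and 66.8 in PP TFR. It rose in pLN and fell in PP, with a difference of -4.30 ± 0.36 (adjusted p = 0.000114). Dnah7a, a dynein heavy chain gene, behaved likewise at -4.50 ± 0.82, and both of its probes were called. Gzmb (-3.39 ± 0.61) and Gsta4 (-3.76 ± 0.43), genes of a cytotoxic protease and a glutathione transferase, fell in PP and did not reach the call in pLN. Emp1 (-3.61 ± 1.08) and Mlf1 (-3.31 ± 0.64), genes of a membrane protein and of a myeloid leukaemia factor, rose in pLN alone. Left out alone, pLN d12 replicate 2 ended the calls of Il10, Dnah7a and Emp1 (-4.78, -4.36 and -3.55), pLN d25 that of Emp1 (-3.40), PP replicate 1 those of Il10, Dnah7a, Emp1, Gzmb and Mlf1 (-3.70, -3.55, -3.44, -3.26 and -2.78), and PP replicate 2 those of Il10, Emp1, Gzmb and Mlf1 (-5.67, -3.77, -3.52 and -3.83).

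Where a group was not above background, the calls with the smallest adjusted p gave bounds. Vegfa, the vascular growth factor, rose at least 2.65-fold in PP. Celf5, an RNA-binding protein gene, and Tead3, a transcription factor gene, rose at least 2.04-fold and 1.96-fold there. None of these was above background in pLN or in PP Treg, where every array read 20, the floor, so the spread there was not measured. A second probe of Ntrk3 rose at least 16.7-fold in PP, and a probe of the follicular factor Tox2 at least 11.7-fold, whereas another, brighter Tox2 probe differed by 0.56 and was not called. Rbm24, an RNA-binding protein gene, fell at least 9.73-fold in PP and was not above background in pLN, whereas Galnt3, which starts O-glycosylation, rose at least 3.86-fold in pLN and was below background in PP. Peli2, a ubiquitin ligase gene, differed by -3.61 ± 0.29 and fell in PP. Angptl2, a secreted angiopoietin-like factor, had a fitted difference of -1.89 ± 0.21, with its pLN Treg arrays below background and a pLN rise of at least 3.77-fold. Cyp26b1, which degrades retinoic acid, was measured in PP Treg at 2133 and 1964 and fell to 26.6 and 35.9 in PP TFR, of which 1 array was above background, while all 6 pLN arrays (20 to 87.7) were below it. With every array floored at 144, the highest of the lowest detected intensities, the differences of Celf5, Tead3 and Vegfa were 0, those of Rbm24 and Galnt3 were -0.70 and -0.77 and no longer called, and that of Angptl2 turned to 0.89.

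Among follicular transcription factors, Bcl6, Ascl2, Cebpa and Hif1a had a larger step in PP and Prdm1 a smaller one. Of 18 tested, 4 thus had a larger step and 1 a smaller one, with a median difference of 0.34 against 0.02 over all tested probes. The step was larger at 2.43% of all tested probes and smaller at 2.99%. Bcl6, the repressor that directs the follicular fate (chr16:23965160-23965219, minus strand), had intensities of 3431, 4430 and 3964 in pLN Treg, 8794, 10254 and 16807 in pLN TFR, 7034 and 4213 in PP Treg, and 53774 and 46063 in PP TFR. It rose in both tissues, by 1.55 ± 0.23 in pLN and 3.19 ± 0.28 in PP, and its 2 PP steps were above its 3 pLN steps (difference 1.64 ± 0.36, adjusted p = 0.0147). Ascl2, a factor that starts the follicular migration programme (chr7:150152734-150152793, minus strand), read 309, 227 and 495 in pLN Treg, 1351, 864 and 2338 in pLN TFR, 217 and 169 in PP Treg, and 17635 and 9859 in PP TFR. The PP Treg arrays lay just below the pLN Treg arrays and the PP TFR arrays far above all others, giving a difference of 4.01 ± 0.49 (adjusted p = 0.000941). Cebpa, a factor better known from myeloid cells (2.51 ± 0.70), and Hif1a, the oxygen-regulated factor (1.27 ± 0.33), also rose in both tissues and further in PP. On the PP TFR arrays of replicates 1 and 2 the B-cell marker sum was 181100 and 14470. The myeloid marker sum was 76950 and 125200, of which Siglech, also bright in pLN TFR (39915 to 49323), made up 58215 and 103386.5. The median intensity of the myeloid markers was 771.8 and 80.2. Siglech and Itgam were higher on replicate 2, whereas Lyz2, Csf1r, Fcgr3 and Flt3 were lower there. Bcl6 read 53774 and 46063 on these arrays and Cebpa 41597 and 21442. The part of other cells in these values was not tested. Prdm1, which encodes BLIMP1, the opponent of BCL6, rose in pLN by 1.28 and had a PP step of -0.81 that was not called (difference -2.10 ± 0.41). Tox differed by 0.92 and Tcf7 by 0.75, both under the size threshold, and Maf and Irf4 had differences of -0.53 and -0.40 that were not called. Without pLN d12 replicate 1 the call of Hif1a was lost (0.95), and without pLN d25 that of Cebpa (2.69). Omitting pLN d12 replicate 2 or PP replicate 1 ended those of Bcl6 (1.47 and 1.90), Cebpa (2.56 and 2.77), Hif1a (1.26 and 0.96) and Prdm1 (-2.02 and -1.56), and omitting PP replicate 2 those of Bcl6, Cebpa and Hif1a (1.38, 2.26 and 1.57).

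**Figure D2:**
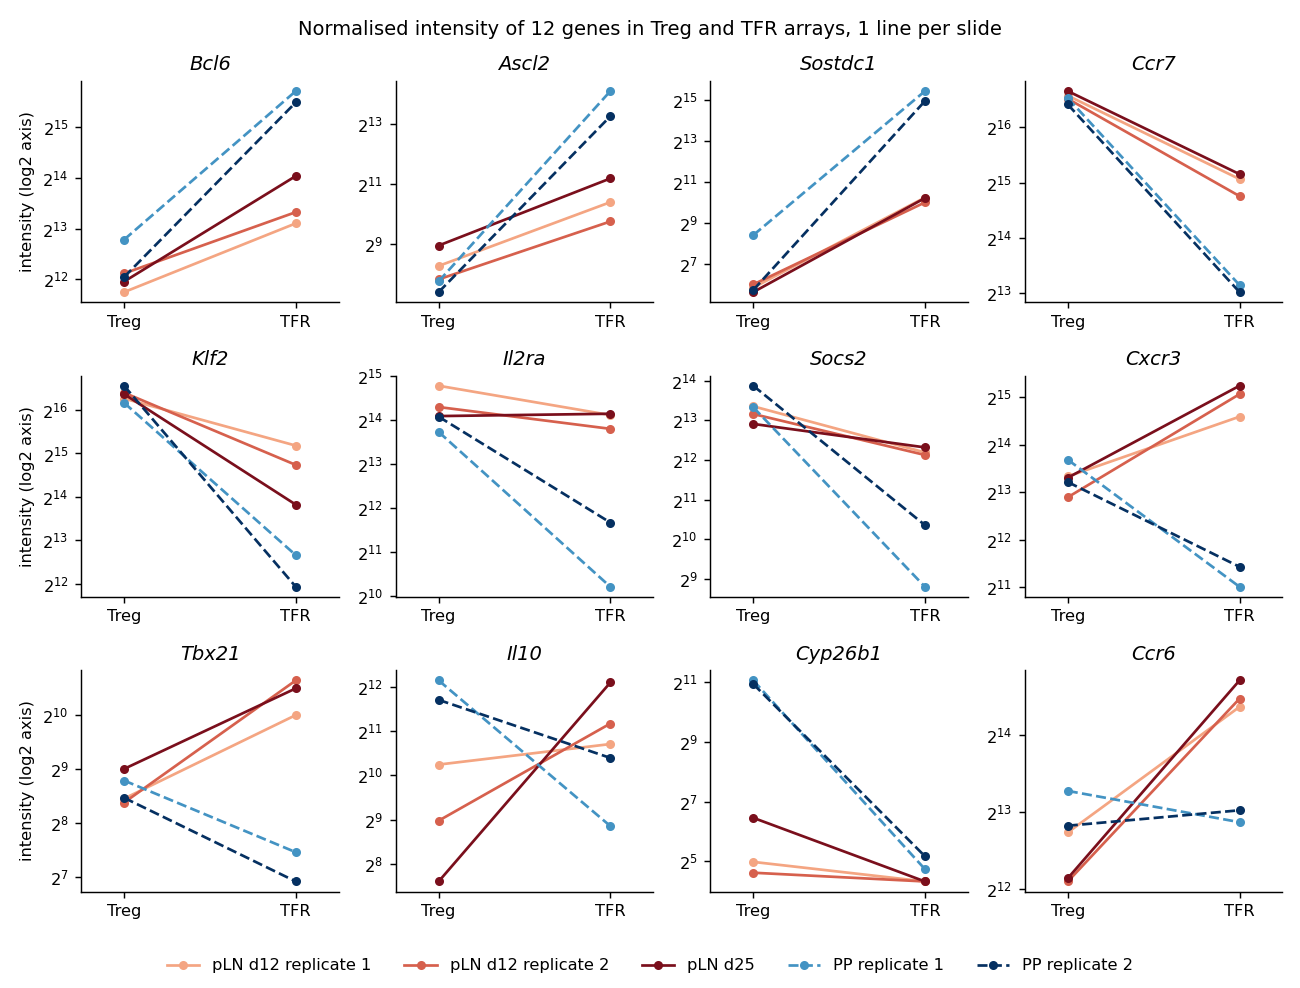
Each panel is 1 gene, with normalised intensity on a log2 axis and 1 line per slide from the Treg array to the TFR array (solid for the 3 pLN slides, dashed for the 2 PP slides). The lines of Bcl6 and Ascl2 climb more steeply in PP, those of Ccr7, Klf2 and Socs2 drop more steeply, and those of Cxcr3, Tbx21 and Il10 run in opposite directions in the tissues.

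Sh2d1a, Btla, Il1r1 and Cd40lg had a larger step in PP among receptors and adaptors of follicular T cells. These were 4 of 18 tested, against 2.43% of all tested probes, with none smaller (median difference 0.37). Sh2d1a encodes SAP, the adaptor that lets T cells hold on to B cells, and its TFR intensities were 25323, 35495 and 37689 in pLN and 65601 and 86319 in PP, over Treg levels of at most 24288. Its difference was 1.01 ± 0.23 (adjusted p = 0.016). Btla, an inhibitory receptor, read 7315, 9845 and 11046 in pLN TFR and 14047 and 15672 in PP TFR, over 5861 to 8066 in Treg, a difference of 1.02 ± 0.18 (adjusted p = 0.00571). In both genes the 2 PP TFR arrays were the highest of the 10. Il1r1, the signalling receptor of IL-1, rose in both tissues and further in PP (2.18 ± 0.63), and Cd40lg, the ligand that activates B cells, rose in PP alone (1.72 ± 0.49), from levels of 57.0 and 59.7 to 282 and 109. The receptor that leads cells into follicles, Cxcr5, rose in both tissues and its difference of 0.79 ± 0.37 missed the call (adjusted p = 0.182), as did Icos at 0.23 and Ctla4 at -0.23. Omission of pLN d12 replicate 1 ended the calls of Btla and Sh2d1a (0.84 and 0.83), that of pLN d12 replicate 2 those of Cd40lg, Il1r1 and Sh2d1a (1.74, 2.50 and 1.03), that of pLN d25 those of Cd40lg and Il1r1 (1.51 and 2.06), and that of either PP slide all 4 (Btla 1.00 or 1.04, Cd40lg 1.00 or 2.44, Il1r1 2.20 or 2.15, Sh2d1a 0.95 or 1.06).

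Most genes that keep T cells circulating fell from Treg to TFR, and Klf2, Ccr7 and S1pr1 fell further in PP. Of 16 genes of the KLF2 and egress list, 13 fell in PP and 10 in pLN, against 5.24% and 4.08% of all tested probes. The step was smaller in PP for 4 and larger for 1 (median difference -0.86), against 2.99% and 2.43%. Klf2, the factor that drives S1pr1 (chr8:74845137-74845196, plus strand), fell from 78874, 86605 and 84680 to 37163, 27297 and 14466 in pLN, and from 73713 and 96749 to 6452 and 3891 in PP. The d25 pLN slide was the closest to PP, and the difference was -2.31 ± 0.56 (adjusted p = 0.0231). Ccr7, which holds cells in the T-cell zone, read 34295, 27697 and 36476 in pLN TFR and 9087 and 8321 in PP TFR, over Treg levels of at least 87307. Both PP TFR arrays were below all others, a difference of -1.80 ± 0.37 (adjusted p = 0.0107). S1pr1, the exit receptor, differed by -1.30 ± 0.36. Cd69, whose product opposes S1PR1 at the cell surface, fell in pLN by 1.05 and had a PP step of 0.25 (difference 1.30 ± 0.28). Il7r, the receptor of IL-7, differed by -1.61 and missed the call (adjusted p = 0.0527). With pLN d12 replicate 1 or 2 left out Cd69 (0.96 or 1.33), Klf2 (-1.97 or -2.26) and S1pr1 (-1.20 both times) lost their calls, with pLN d25 left out Ccr7 and S1pr1 (-1.75 and -1.50), with PP replicate 1 left out Ccr7, Cd69, Klf2 and S1pr1 (-1.80, 1.40, -2.87 and -1.84), and with PP replicate 2 left out the same 4 (-1.79, 1.20, -1.75 and -0.76).

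Il2ra, Socs2, Cish and Socs3 of the IL-2 receptor and STAT5 list fell in PP TFR, and their step was smaller there than in pLN. Of 17 tested, 4 had a smaller step in PP and none a larger one (median difference -0.29), against 2.99% and 2.43% of all tested probes. Il2ra, the alpha chain of the high-affinity receptor (chr2:11614744-11614803, plus strand), read 28054, 20081 and 17418 in pLN Treg, 17697, 14256 and 18068 in pLN TFR, 13579 and 17257 in PP Treg, and 1192 and 3268 in PP TFR. Only the PP TFR arrays were low, and the difference was -2.59 ± 0.40 (adjusted p = 0.00295). Socs2, a STAT5-induced suppressor of cytokine signalling (chr10:94875187-94875246, minus strand), went from 10460, 9143 and 7686 to 4668, 4463 and 5097 in pLN, and from 10291 and 14983 to 445 and 1309 in PP. All 5 slides moved down and both PP slides the most, with a difference of -3.09 ± 0.40 (adjusted p = 0.00131), and all 3 probes of the gene were called. Cish, another inhibitor induced by STAT5, fell in PP from 20004 and 25149 to 2455 and 9752, and differed by -1.96 ± 0.47. Socs3, an inhibitor in the IL-6 and STAT3 pathway, fell in both tissues, with a difference of -1.42 ± 0.34. The other chains of the receptor did not pass, Il2rb at -0.29 and Il2rg at 0.50, nor did Stat5a at -0.15 and Stat5b at 0.10. Bcl2, a survival gene, had a difference of 0.86, on the opposite side and under the size threshold. PP replicate 1, when omitted, took away the calls of Cish, Il2ra and Socs3 (-1.13, -2.03 and -1.31), pLN d12 replicate 2 or pLN d25 that of Cish (-1.96 or -1.83), and pLN d12 replicate 1 or PP replicate 2 that of Socs3 (-1.42 or -1.52), while Socs2 kept its call throughout.

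The promoters of 2 of these genes carry the palindrome bound by STAT factors, and they are shown because these genes moved together. RefSeq windows of 300 bases around a start site (build GRCm38.p6, another build than the probe positions) were searched on both strands for TTCNNNGAA, which 8.3% of all 32851 windows hold. It was in 2 of the 3 called members with a window, Cish and Socs3, and not in that of Il2ra. Other motifs were searched in other lists. GGTGTGA (T-box) was in 1 of 8 type 1 genes (3.98% of windows) and ACGTG (hypoxia) in 2 of 4 glycolysis genes (19.6%). CACCC (KLF) was in 1 of 1 egress gene (57.5%) and AGGTCA (nuclear receptor) in 2 of 4 retinoid-list genes (16.3%). In all such counts a member counted if any of its windows matched, whereas the shares are per window. Capitals mark the matches in Cish (chr9:107296409-107296708, plus strand) and Socs3 (chr11:117969317-117969616, minus strand), each written from 5′ to 3′ along the gene, and a match is a description, not a site in use.
Cish: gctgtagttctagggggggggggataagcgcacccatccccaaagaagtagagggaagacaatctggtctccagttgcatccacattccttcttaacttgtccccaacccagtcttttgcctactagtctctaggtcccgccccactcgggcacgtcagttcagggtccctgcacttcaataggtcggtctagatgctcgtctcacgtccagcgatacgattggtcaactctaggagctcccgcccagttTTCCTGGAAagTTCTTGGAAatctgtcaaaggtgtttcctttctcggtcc
Socs3: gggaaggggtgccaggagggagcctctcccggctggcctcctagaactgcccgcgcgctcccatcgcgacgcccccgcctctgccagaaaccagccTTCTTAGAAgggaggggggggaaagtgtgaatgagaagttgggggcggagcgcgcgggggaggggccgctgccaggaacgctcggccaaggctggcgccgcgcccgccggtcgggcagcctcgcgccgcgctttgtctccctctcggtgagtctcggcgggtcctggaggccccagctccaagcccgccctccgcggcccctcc

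Most tested cytokines of the list rose from Treg to TFR in both tissues, and few differed. Of 17 tested, 11 rose in PP and 12 in pLN, with 1 larger step, 1 smaller step (Il10, above) and a median difference of 0.01. Over all tested probes 8.94% rose in PP and 8.52% in pLN, with 2.43% larger and 2.99% smaller steps. Sostdc1, a secreted antagonist of BMP and WNT signals (chr12:37044532-37044591, plus strand), read 57.6, 64.1 and 49.5 in pLN Treg, 1203, 1021 and 1181 in pLN TFR, 338 and 53.0 in PP Treg, and 43577 and 31136 in PP TFR. The PP TFR arrays exceeded the pLN TFR arrays on both slides, with a difference of 3.79 ± 0.66 (adjusted p = 0.00516), and in pLN Treg it was above background on 1 of 3 arrays. Il21 and Il4, cytokines that help B cells, rose in both tissues. Il21 rose by a log2 value of 5.55 in PP. In pLN, where Treg were below background, the rise was at least 8.25-fold, a bound given as a fold and not in log2. The difference of Il21 was not called. Il4 rose by 4.70 in PP and 2.97 in pLN (both log2), and its difference of 1.73 ± 0.84 was not called. The call of Sostdc1 was lost without PP replicate 2 (2.69), and that of Il10 as given above.

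The type 1 programme had the lowest median of the lists, at -2.01, with 9 of 17 genes smaller in PP and none larger. Over all tested probes 2.99% were smaller and 2.43% larger. Cxcr3, the receptor for interferon-induced chemokines (chrX:98926920-98926979, minus strand), read 10302, 7602 and 10115 in pLN Treg, 24669, 34295 and 38766 in pLN TFR, 13149 and 9490 in PP Treg, and 2054 and 2751 in PP TFR. Treg levels overlapped between the tissues, TFR were above Treg on every pLN slide and below it on both PP slides, and the difference was -4.02 ± 0.60 (adjusted p = 0.00265). Tbx21, which encodes the type 1 master regulator T-bet (chr11:96959417-96959476, minus strand), went from 348, 331 and 510 to 1019, 1591 and 1437 in pLN, and from 440 and 352 to 175 and 120 in PP. The directions were again opposite (-3.21 ± 0.60, adjusted p = 0.00693). Ifng, the cytokine of the programme, rose in pLN from 208, 119 and 327 to 1154, 2458 and 3538, while in PP it read 77.8 and 136 in Treg and 79.0 and 173 in TFR. That left PP without a called step and a difference of -3.24 ± 0.47 (adjusted p = 0.00219). Il18r1 (-3.17 ± 0.45), a chain of the IL-18 receptor, also moved in opposite directions, its partner Il18rap (-2.71 ± 0.72) and the cytotoxic granule gene Nkg7 (-1.88 ± 0.32) rose in pLN alone, and the death ligand gene Fasl (-2.01 ± 0.40) fell in PP alone, as did Gzmb. Not every member followed, since Stat4, which signals from the IL-12 receptor, differed by 0.86 and Prf1, which encodes perforin, by -0.10, neither called. Il18r1 kept its call on every omission. Dropping pLN d12 replicate 2 ended those of Il18rap and Tbx21 (-2.88 and -2.96), pLN d25 that of Il18rap (-2.24), PP replicate 1 those of Cxcr3, Fasl, Gzmb, Ifng, Il18rap and Tbx21 (-3.58, -1.53, -3.26, -3.08, -1.72 and -3.32), and PP replicate 2 those of Gzmb, Il18rap, Nkg7 and Tbx21 (-3.52, -3.69, -1.62 and -3.10).

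Few genes of Treg identity were called, though most differences were negative. Of 21 tested, 2 had a smaller step in PP and none a larger one (median difference -0.53), against 2.99% and 2.43% of all tested probes. Negative differences numbered 16 and positive ones 5, against 10306 and 11320 over all tested probes. Nrp1, a semaphorin receptor typical of thymic Tregs, read 1104, 1333 and 1347 in pLN Treg and 1840, 3234 and 3085 in pLN TFR, against 806 and 2120 in PP Treg and 302 and 912 in PP TFR. It rose in pLN and fell in PP (-2.39 ± 0.47, adjusted p = 0.00886). Entpd1, which encodes the ATP-degrading enzyme CD39, fell in PP from 257 and 436 to 42.0 and 110, and differed by -2.05 ± 0.46 (adjusted p = 0.0161). Foxp3, by which both cells were sorted, had a difference of -0.10, and Ikzf2, the factor HELIOS, rose in both tissues with a difference of 0.24. Klrg1, a marker of effector Tregs, rose in pLN by 1.64 and its PP step of 1.06 was not called, with a difference of -0.58 ± 0.63. Without PP replicate 1 the list median was 0.10, the opposite sign, and Entpd1 (-1.74) and Nrp1 (-2.29) were not called. Entpd1 was also not called without pLN d12 replicate 2 (-1.94) or pLN d25 (-1.87), nor Nrp1 without PP replicate 2 (-2.49).

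**Figure D3:**
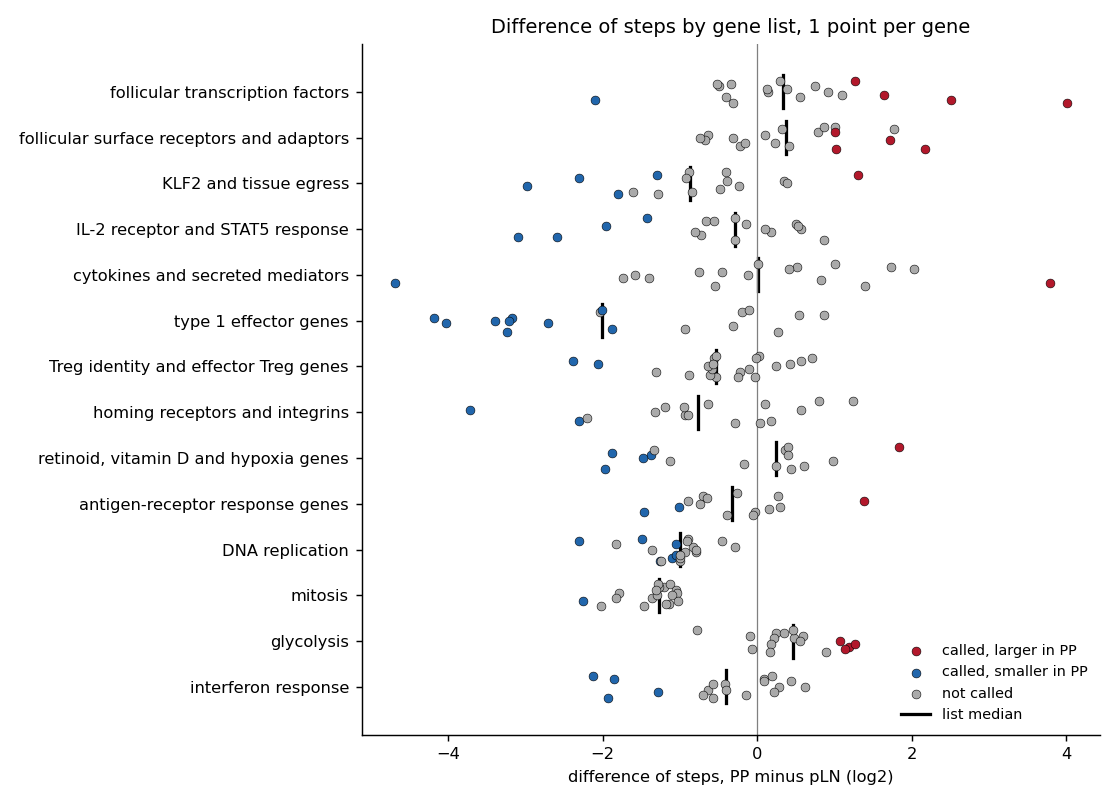
Each point is 1 gene of 1 of the 14 lists, placed by its difference of steps (PP minus pLN, log2), with a black bar at the list median and colour for calls. The type 1 list has the lowest median, at -2.01, and the lowest single gene is Il10 of the cytokine list, at -4.69. Every gene of the DNA replication and mitosis lists lies left of 0, and the called genes of the glycolysis list all lie right of it.

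Few homing genes were called, and the median difference of the list was negative (-0.77). Of 16 tested, 10 differences were negative and 6 positive, against 10306 negative and 11320 positive over all 21626 tested probes. The step was called smaller at 2 and larger at none, against 2.99% and 2.43% of all tested probes. Ccr6, the receptor for CCL20 and a guide to the follicle-associated epithelium, read 6808, 4369 and 4499 in pLN Treg, 21209, 22846 and 26945 in pLN TFR, 9914 and 7236 in PP Treg, and 7472 and 8320 in PP TFR. It was higher in TFR on every pLN slide, with PP steps of -0.41 and 0.20, a difference of -2.31 ± 0.49 (adjusted p = 0.0129). Ccr2, a receptor for inflammatory chemokines, fell in PP from 556 and 1027 to 22.6 and 49.8 and differed by -3.71 ± 0.82 (adjusted p = 0.0152). Gcnt1 and Fut7, enzymes that make selectin ligands, rose in pLN by 2.42 and 2.24 and had PP steps of 0.21 and 0.91, but their differences of -2.20 and -1.32 were not called. Itga4, the alpha4 chain of the gut-homing integrin, differed by 0.04. The call of Ccr2 was lost on omission of pLN d12 replicate 2 (-3.74) or either PP slide (-3.58 and -3.84), and that of Ccr6 on omission of pLN d25 (-2.12) or either PP slide (-2.001 and -2.61).

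Nuclear receptors and environmental sensors were called in both directions. Of 15 genes of the retinoid, vitamin D and hypoxia list, 4 had a smaller step in PP and 1 a larger one (median difference 0.24). The shares over all tested probes were 2.99% and 2.43%. Rara, a retinoic acid receptor, read 7451, 6887 and 6732 in pLN Treg, 4952, 4255 and 5110 in pLN TFR, 4914 and 4100 in PP Treg, and 836 and 822 in PP TFR. The PP TFR arrays were the lowest, with a difference of -1.88 ± 0.22 (adjusted p = 0.000734), and Rarg, another retinoic acid receptor, gave -1.48 ± 0.17 (adjusted p = 0.000701) and fell in PP alone. Dhrs3, which reduces retinal, was at 9230 and 8917 in PP Treg and 10793 and 15052 in PP TFR. In pLN it rose from 454, 388 and 445 to 1263, 1503 and 1970, so that the tissues were apart in both cell types and the step was called in pLN alone (-1.37 ± 0.35). Vdr, the vitamin D receptor, reached 1654 and 1983 in PP TFR and 71.5, 115 and 175 in pLN TFR, with pLN Treg below background and a pLN rise of at least 1.77-fold (fitted difference 1.84 ± 0.45), and Ahr, the sensor of dietary and microbial ligands, rose in pLN alone (-1.97 ± 0.57). Rara and Rarg kept their calls whichever slide was left out, whereas Vdr lost its own without pLN d12 replicate 1 (1.51), pLN d12 replicate 2 (1.86) or a PP slide (1.79 and 1.89), Ahr without pLN d12 replicate 2, pLN d25 or a PP slide (-1.92, -1.69, -1.45 and -2.49), and Dhrs3 without pLN d12 replicate 2 or a PP slide (-1.32, -1.10 and -1.63).

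Immediate genes of antigen-receptor signalling had calls on both sides. Of 14 tested, Nr4a1 (-1.01 ± 0.16) and Nr4a2 (-1.47 ± 0.41), orphan nuclear receptors induced by the T-cell receptor, had smaller steps in PP, and Dusp6, a phosphatase of ERK, a larger one (1.38 ± 0.28). Smaller steps made up 2.99% of all tested probes and larger ones 2.43%. Of the 14 differences, 10 were negative and 4 positive, against 10306 and 11320 over all tested probes. The list median was -0.32, and Egr2, a tolerance and follicular factor, differed by -0.03. Omitted singly, pLN d12 replicate 1 ended the call of Nr4a2 (-1.32), pLN d12 replicate 2 those of Dusp6 and Nr4a2 (1.41 and -1.40), pLN d25 that of Nr4a1 (-0.94), PP replicate 1 all 3 (Dusp6 1.32, Nr4a1 -0.81 and Nr4a2 -1.05), and PP replicate 2 those of Dusp6 and Nr4a2 (1.45 and -1.89).

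Most genes of DNA replication and all tested genes of mitosis rose from Treg to TFR in pLN, and the step was lower in PP at each of the tested genes of both lists, though few single differences were called. Over 20 replication genes, 17 rose in pLN and 9 in PP, and all 20 differences were negative (median -0.998). Over all 21626 tested probes 10306 were negative. The step was called smaller at 6, against 2.99% of all tested probes. In 19 of these 20 both PP steps lay below all 3 pLN steps, which held for 22.6% of all tested probes (the reverse for 24.7%). Pola1, the catalytic subunit of the polymerase that primes replication, read 594, 663 and 551 in pLN Treg, 2502, 2899 and 2288 in pLN TFR, 458 and 449 in PP Treg, and 646 and 729 in PP TFR. TFR were above Treg on all 5 slides and further in pLN, where the step was 2.09 ± 0.17 against 0.60 ± 0.21 in PP (adjusted p of the difference = 0.00662). Cdc6, which loads the replicative helicase, was below background in Treg of both tissues and rose at least 2.03-fold in PP and 5.99-fold in pLN, so its called difference (fitted at -2.31 ± 0.62) rests on bounds. The other calls were Mcm3 (-1.06 ± 0.27), a helicase subunit, Cdc45 (-1.26 ± 0.24) and Gins1 (-1.11 ± 0.23), which activate it, and Prim1 (-1.04 ± 0.25), the primase. All 18 mitosis genes tested rose in both tissues, with median steps of 3.20 in pLN and 1.96 in PP, and their differences ran from -2.25 to -1.02. Only Cdk1, the mitotic kinase, was called (-2.25 ± 0.61, adjusted p = 0.0356), with pLN Treg below background and a pLN rise of at least 7.12-fold, and Mki67, the proliferation marker Ki-67, gave -1.83 ± 0.76 (adjusted p = 0.134). Cdk1 lost its call on each of the 5 omissions (-2.53 to -1.97). Those of Cdc6 and Mcm3 were lost without pLN d12 replicate 1 (-2.24 and -1.02) or pLN d25 (-2.29 and -1.15), those of Cdc45, Cdc6, Gins1, Mcm3 and Prim1 without pLN d12 replicate 2 (-1.19, -2.40, -1.06, -1.001 and -0.97), those of Mcm3, Pola1 and Prim1 without PP replicate 2 (-1.22, -1.59 and -1.13), and all 6 without PP replicate 1 (Cdc45 -1.20, Cdc6 -1.61, Gins1 -0.91, Mcm3 -0.89, Pola1 -1.38 and Prim1 -0.96).

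Called replication genes were set beside their promoters because E2F factors time this group in the cell cycle. The motif TTTNGCGC, searched on both strands, was in 1.38% of all windows and in 2 of the 5 called members with a window. Capitals mark it in Mcm3 (chr1:20820263-20820562, minus strand) and, in its reverse complement, in Pola1 (chrX:93632106-93632405, minus strand).
Mcm3: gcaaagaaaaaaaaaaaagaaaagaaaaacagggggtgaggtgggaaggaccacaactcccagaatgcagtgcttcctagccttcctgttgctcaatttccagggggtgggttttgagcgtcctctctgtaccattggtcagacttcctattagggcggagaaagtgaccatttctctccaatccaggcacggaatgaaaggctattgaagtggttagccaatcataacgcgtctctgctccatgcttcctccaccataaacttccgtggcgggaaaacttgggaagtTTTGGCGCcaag
Pola1: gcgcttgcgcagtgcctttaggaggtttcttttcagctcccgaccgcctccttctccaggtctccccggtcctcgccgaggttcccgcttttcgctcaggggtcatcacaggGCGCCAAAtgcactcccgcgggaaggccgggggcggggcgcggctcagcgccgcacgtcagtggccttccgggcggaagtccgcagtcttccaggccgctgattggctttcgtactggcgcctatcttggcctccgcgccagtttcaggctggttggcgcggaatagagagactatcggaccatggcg

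The step of 14 of 17 glycolysis genes was higher in PP, and Slc2a1, Pfkp, Pfkl and Slc16a3 were called. Over all 21626 tested probes it was higher at 11320. Of the 17, 10 rose in PP and 5 in pLN, against 8.94% and 8.52% of all tested probes. The step was larger at 4 and smaller at none (median difference 0.46), against 2.43% and 2.99%. In 12 both PP steps lay above all 3 pLN steps, which held for 24.7% of all tested probes. Slc2a1, the glucose transporter GLUT1, read 11700, 13800 and 16678 in pLN Treg, 6992, 9171 and 9400 in pLN TFR, 8491 and 11970 in PP Treg, and 10711 and 17058 in PP TFR. TFR lay below Treg on all pLN slides and above it on both PP slides, and although neither step alone reached the size threshold the difference was 1.14 ± 0.14 (adjusted p = 0.00105). Pfkp (1.19 ± 0.19) and Pfkl (1.08 ± 0.16), forms of the committing enzyme phosphofructokinase, rose in PP alone, and Slc16a3 (1.27 ± 0.19), the lactate exporter MCT4, rose in both tissues. Ldha, lactate dehydrogenase, and Hk2, a hexokinase, had differences of -0.09 and -0.78 that were not called. Slc2a1 kept its call on all omissions, Pfkl lost it without pLN d25 (0.90), Pfkl, Pfkp and Slc16a3 without PP replicate 1 (1.05, 1.04 and 1.36), and Slc16a3 without PP replicate 2 (1.17).

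Usp18, Ifit3, Ly6a and Ly6c1 of the interferon-response list fell further in PP. Of 18 tested, 10 fell in PP and 7 in pLN, against 5.24% and 4.08% of all tested probes. The step was smaller in PP for 4 and larger for none (median difference -0.41), against 2.99% and 2.43%. Usp18, which removes ISG15 from proteins, read 4466, 8604 and 8788 in pLN Treg, 1312, 2945 and 2727 in pLN TFR, 2894 and 2854 in PP Treg, and 391 and 353 in PP TFR. It fell on all 5 slides and the most on the PP slides, a difference of -1.29 ± 0.22 (adjusted p = 0.00448). Ifit3, an antiviral effector, gave -2.13 ± 0.49, and the surface antigens Ly6a and Ly6c1 gave -1.92 ± 0.52 and -1.85 ± 0.50. Isg15, a ubiquitin-like modifier, and Irf7, a regulator of interferon genes, had differences of 0.29 and 0.44 that were not called. Ly6a and Ly6c1 dropped out without any 1 of the pLN slides (Ly6a -1.98, -1.80 and -1.996, Ly6c1 -1.86, -1.72 and -1.96), Ifit3 without pLN d12 replicate 2 or pLN d25 (-2.05 and -1.95), Usp18 without PP replicate 1 (-1.35), and Ifit3, Ly6c1 and Usp18 without PP replicate 2 (-1.40, -1.15 and -1.22). The element of interferon-stimulated promoters, a GAAA and a further GAAA with 2 bases between, was in 3.44% of all windows and in 1 of the 2 called members with a window, Ifit3, where capitals mark its 2 reverse-complement copies (chr19:34583279-34583578, plus strand).
Ifit3: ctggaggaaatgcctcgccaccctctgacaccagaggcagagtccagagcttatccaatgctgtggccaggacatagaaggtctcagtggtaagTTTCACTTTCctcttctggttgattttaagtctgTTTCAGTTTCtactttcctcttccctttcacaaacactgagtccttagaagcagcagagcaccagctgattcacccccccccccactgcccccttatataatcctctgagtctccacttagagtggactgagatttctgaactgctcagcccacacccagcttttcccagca

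The tissue difference lay mostly at the TFR end of the step. Levels of each cell type were set against each other across tissues, a comparison in which slide shifts do not cancel. Among the probes with a larger step the TFR level was 1.61 higher in PP at the median and the Treg level 0 higher, and the TFR end was the further apart in 482 of 525 (91.8%). Among those with a smaller step the medians were -1.59 for TFR and -0.07 for Treg, and the TFR end was the further apart in 552 of 646 (85.4%), against 64.2% of all tested probes. The calls fixed that 1 end be apart, so these shares describe the called probes and carry no test. They include probes with a group below background, whose levels there are not measured. Exceptions measured in all 4 groups were Il10, with 2.98 for Treg and -1.70 for TFR, and Dhrs3, with 4.41 and 3.04.

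**Figure D4:**
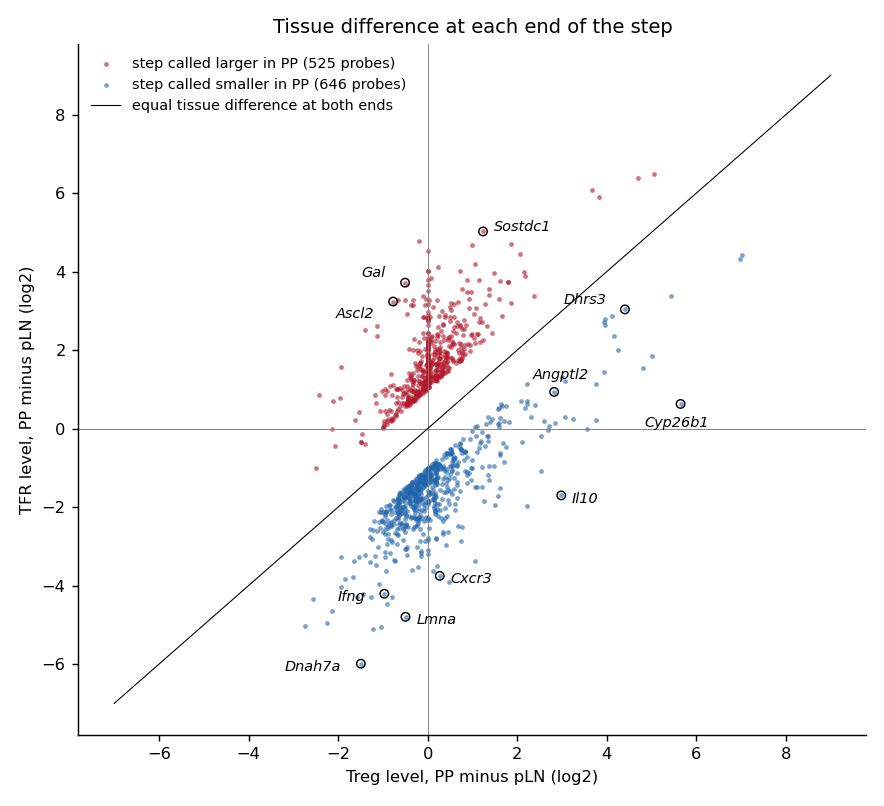
Each point is 1 called probe, with the log2 PP minus pLN level in Treg on the horizontal axis and in TFR on the vertical axis, red for a larger and blue for a smaller step in PP. Most red points lie near 0 horizontally and above it vertically (medians 0 and 1.61) and most blue points near 0 and below it (medians -0.07 and -1.59), while Dhrs3 and Cyp26b1, the latter below background in pLN, lie to the right.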

How the data were processed

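Per the labels, RNA was amplified for 1 round, labelled with Alexa Fluor 555 and hybridised to 1-colour Agilent arrays, read by Agilent Feature Extraction 10.7.3.1. The deposited scanner files of the authors hold intensity per feature, with probe positions on mm9. The authors' value table holds normalised intensities, whose log2 was used only as an alternative. Following the methods, the 4 features of a probe were averaged without outliers and quantile normalised over 20 arrays, the 75th percentile was set to 1500, values under 20 were raised to 20, and log2 was taken. Tested were 21626 probes well above background (at least 3 features) on all arrays of at least 1 of PP TFR, PP Treg, pLN TFR and pLN Treg. limma 3.58.1 (R 4.3.3) fitted the 5 slides and the cell types within each tissue, with 9 residual degrees of freedom, so the naive and TFH arrays added only to the spread. Symbols came from RefSeq by accession (27592 of 39429 probes matched), otherwise from the files.

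The slides, read from the array headers, pair TFR with Treg: their deviations from the group means correlated at 0.48 to 0.86, and the fit carried slide as a block. Members and gene lists were chosen with earlier results of these data known, so list counts and medians are descriptions. A listed gene is its brightest tested probe. Named besides list members are the 10 called probes in each direction with the largest difference measured in all 4 groups, and the 5 in each direction with the smallest adjusted p otherwise. Bounds on a fold set the brighter group's mean against, per array, the higher of the lowest detected signal and the probe's own. The number of arrays limits the precision, and the procedure was tested on simulated data. Alternatives covered normalisation, background, floor, filter, model, RNA amount and each slide left out. Some genes of the lists are counted but not reported here by name.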

Additional observations from a re-analysis of the deposited data

Results flagged for a closer look

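The difference of the Treg to TFR step between PP and pLN is itself a test of 1 contrast in 2 tissues, so all 1171 called probes drew attention for that reason. The called steps were opposite in direction in the tissues at 16 of them. Among the named genes with opposite called steps, Atp1b1 (difference 3.61) and Syde1 (2.78) rose in PP and fell in pLN. Dnah7a (-4.50), Lmna (-4.30), Cxcr3 (-4.02), Tbx21 (-3.21), Il18r1 (-3.17) and Nrp1 (-2.39) fell in PP and rose in pLN.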

How the results depend on the processing

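The 1171 calls depended on the pairing of TFR and Treg within a slide: without the slide block (a mean for each tissue and cell type) 244 were called, and with 12 group means and d12 as the only pLN time 122. They were 605 when only probes detected on all 10 arrays entered, and 240 with only the slides of 40 ng, an alternative chosen after seeing the data that leaves 3 slides. Leaving out 1 slide gave 379 to 1113 calls, 379 without PP replicate 1, 569 without PP replicate 2 and 645 without pLN d12 replicate 2. Called PP steps (3066) came to 2032 with normexp background correction and 1758 with only probes detected on all 10 arrays, and 2320 to 3075 with a slide left out. Called pLN steps (2725) came to 1800, 1392 and, with the floor raised to 144 (chosen after seeing the data), 1813, and 2633 to 2995 with a slide left out. Scaling to the 75th percentile with no quantile step moved the share of called differences larger in PP from 44.8% to 51.2%. Of 81 named called probes, 25 kept their call whichever slide was left out, 32 without the block and 81 in the authors' values. Angptl2 turned to 0.89 with the raised floor, the 1 reversal among 1676 values of these probes. The 525 larger and 646 smaller steps had those signs in the 50 ng and in the 40 ng slides taken alone, but the same slides made the calls. In 1170 of the 1171 the steps of the 2 tissues did not overlap, which fixes these signs. They therefore carry no test of RNA amount. The cause of these changes was not tested. The lowest detected intensity differed between arrays (20 to 144), which limits dim probes.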

Other observations

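Some genes had probes that disagreed. Ccr9, the receptor for the small intestinal chemokine CCL25, differed by 1.24 (not called) at its brighter probe and by -1.58 (called) at another. Epas1, a hypoxia factor, had 2 of 3 probes called, with differences of 0.61 to 2.40.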
